A study of Mus musculus with 6 samples.

Results

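The 10 genes described here encode transcription factors that steer lymphocytes towards an effector state or hold them back from it. They are Prdm1, Bcl6, Id2, Id3, Batf, Irf4, Maf, Nfil3, Tox and Tox2. They were chosen by name from the 38924 genes listed for each library, and all 10 were found and had enough reads to be tested. ILT3+ CD4+CD25+ T cells (3 samples) were compared with ILT3- CD4+CD25+ T cells (3 samples). Both came from spleens and mesenteric lymph nodes of untreated syngeneic mice labelled WT, of both sexes and aged 10 to 16 weeks, and were enriched on magnetic columns before sorting by flow cytometry. CD4+CD25+ T cells are a fraction rich in regulatory T cells (Tregs), and ILT3 is an inhibitory surface receptor best known from antigen-presenting cells. Whether the 3 samples of a group came from different animals is not stated, so the p-values below measure the spread between these samples only.

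Several of these factors work as opposing pairs. Blimp-1, the product of Prdm1, and Bcl6 repress each other's genes, Blimp-1 driving terminal effector differentiation and Bcl6 the follicular helper programme. Id2 and Id3 lack a DNA-binding region and hold E proteins off their sites, Id2 being typical of effector and Id3 of resting or memory-like lymphocytes. BATF and IRF4 bind DNA together downstream of the T cell receptor, and in mouse Tregs Blimp-1, IRF4 and BATF mark the effector state.

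The libraries held 9334370 to 13648274 reads assigned to genes. Levels are given as CPM, the reads of a gene, exonic and intronic, per 1000000 reads of the scaled library, and a run of 3 values stands for samples 1, 2 and 3 of a group in that order. The gene of ILT3, named Lilrb4 in the files, was at 284.0 to 406.9 CPM in ILT3+ and 3.24 to 5.81 CPM in ILT3- libraries, so the sort labels and the reads went together. The 8 T cell marker genes summed to 3743 to 4822 CPM in ILT3+ and 4243 to 5665 CPM in ILT3- libraries, and the 4 Treg markers to 3146 to 4059 and 3161 to 3897 CPM in the same order, with Lck and Ikzf2 the most abundant of each list by the mean over both groups. Of these 12 markers edgeR called 0, with 1 (Cd5, lower) at an unadjusted p under 0.05, DESeq2 1 and voom 0. Libraries with the same sample number deviated together from their group means (correlations of 0.362, 0.236 and 0.248 for numbers 1, 2 and 3). Samples 2 and 3 also did so across numbers, more weakly (0.143 and 0.106). The labels state no pairing, so the replicate block used below rests on these same reads. Both libraries numbered 1 stood apart from the rest, with Fos at 420.5 and 875.3 CPM against 6.27 to 26.2 CPM in the other 4.

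At a threshold of 0.05 on the adjusted p of edgeR (quasi-likelihood test), 5 of the 10 genes were higher in ILT3+ cells, namely Prdm1, Id2, Maf, Tox2 and Batf. Over all 13694 tested genes 1.96% were called higher and 0.343% lower. No member was called lower by edgeR, although Id3 had an unadjusted p under 0.05, and 1 was by DESeq2, again Id3, with 0 by voom. With the sample number as a replicate block the same 5 were higher and Id3 was lower, against 4.18% and 2.62% of all tested genes. The 2 groups had separate ranges of CPM for 7 members, 6 of them higher and 1 lower, while 11.4% of all tested genes were higher and 8.76% lower without overlap. The median log2 fold change of the 10 was 1.29, and that of all tested genes -0.02. Without ILT3+ sample 2 or 3, or without ILT3- sample 2 or 3, the count of higher members was 2, Prdm1 and Id2, and that of all genes called higher was 27 to 63 of 14331 to 14409 tested, against 269 of 13694 with all libraries. In these 4 fits the log2 fold change of Batf was 1.48 to 1.79 (adjusted p 0.0590 to 0.1203), that of Maf 2.42 to 2.79 (0.0523 to 0.0783) and that of Tox2 2.45 to 2.90 (0.0610 to 0.110). The cells were sequenced in bulk, so a different share of cells that express a gene and a different amount of its RNA per cell cannot be told apart.

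**Figure D1:**
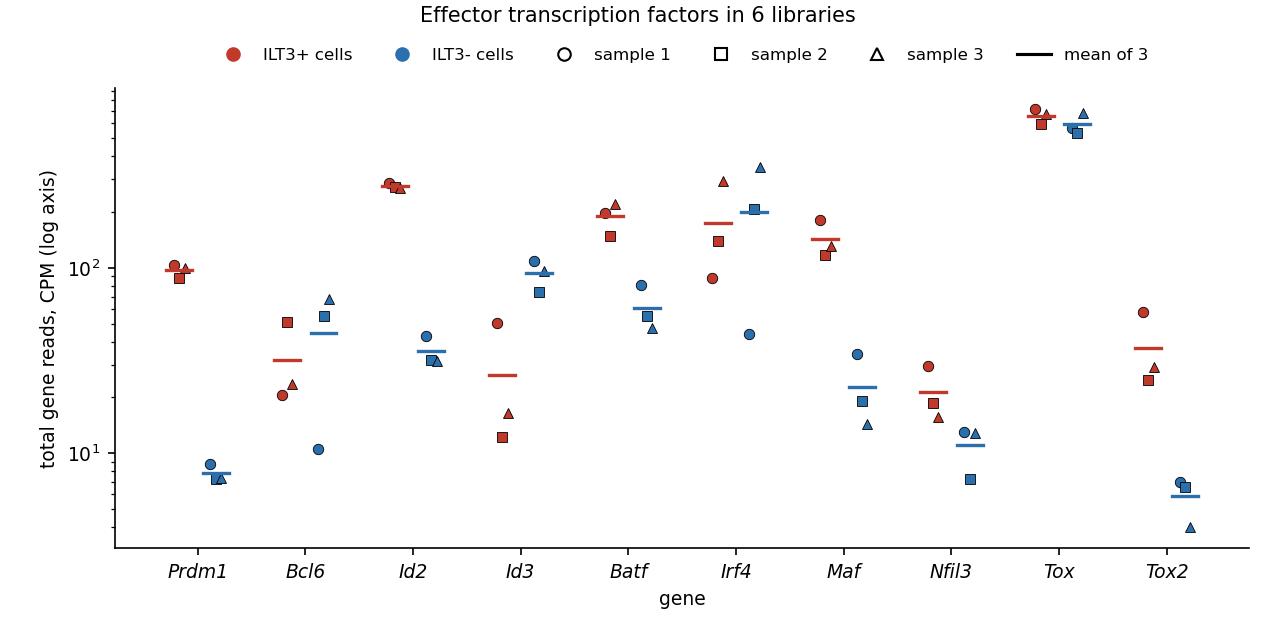
CPM of the 10 genes (log axis) in each library, ILT3+ in red and ILT3- in blue, with the mean of each group as a bar and the sample number as the marker shape. The groups are apart for Prdm1, Id2, Id3, Batf, Maf, Nfil3 and Tox2 and overlap for Bcl6, Irf4 and Tox. CPM are not divided by gene length, so heights compare libraries and not genes.

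Prdm1, the gene of Blimp-1, had the smallest p of the 10. It measured 103, 87.9 and 100.1 CPM in the ILT3+ libraries, against 8.77, 7.31 and 7.34 CPM in the ILT3- libraries. All ILT3+ values lay far above all ILT3- values, and replicates of each group lay close together. ILT3+ cells averaged 97.0 ± 8.02 CPM from 3446 reads, against 7.81 ± 0.836 CPM from 267 reads for ILT3- cells (SD, n = 3 each). This made a log2 fold change of 3.64 (SE 0.21, edgeR adjusted p = 0.000435), and within numbers 1, 2 and 3 the ratio was 11.8, 12.0 and 13.6. Reads in exons and reads in introns both differed without overlap. Exon reads averaged 75.7 ± 3.96 CPM for ILT3+ cells against 5.67 ± 1.25 CPM for ILT3- cells, and intron reads averaged 21.3 ± 4.52 and 2.14 ± 1.69 CPM in the same order (SD, n = 3 each).

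Bcl6, the repressor opposed to Blimp-1, did not separate the groups. It measured 20.6, 50.9 and 23.5 CPM in the ILT3+ libraries, against 10.6, 55.2 and 68.1 CPM in the ILT3- libraries. The lowest and the highest of the 6 values were both ILT3-. The log2 fold change was -0.50 (SE 0.64, edgeR adjusted p = 0.823), with a 95% interval from -1.97 to 0.98 that spans both directions. Within numbers 1, 2 and 3 the ratio was 1.95, 0.923 and 0.346. In ILT3- sample 1 only 24 of its 88 reads were exonic, and the intronic share there, 72.7%, was the highest of the 6 libraries.

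The upstream sequences of these opposing genes are shown because each factor is known to repress the other's gene. RefSeq's table for build GRCm38.p6, on the coordinates of the deposited gene models, gives 1 start site for Prdm1 and 2 for Bcl6. The 250 bases before each start are printed 5′ to 3′ on the gene's strand. Capitals mark matches, on either strand, to CANNTG (the E-box in general, of which E proteins bind some forms) and TGANTCA (BATF and AP-1). They also mark GAAANNGAA (a paired IRF motif), GNGAAAG (a core of the Blimp-1 site) and TTCNNNGAA (a form of the BCL6 site). GAAANNGAA and GNGAAAG can overlap, but no match to the paired IRF motif lies in any member's window.
Prdm1, minus strand of chr10:44458749-44458998: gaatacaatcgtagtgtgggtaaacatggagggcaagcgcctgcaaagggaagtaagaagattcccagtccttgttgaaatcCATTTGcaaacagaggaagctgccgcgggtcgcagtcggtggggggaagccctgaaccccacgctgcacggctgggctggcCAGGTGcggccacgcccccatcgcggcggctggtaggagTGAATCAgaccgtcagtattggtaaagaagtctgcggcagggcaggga
Bcl6, inner start, minus strand of chr16:23981284-23981533: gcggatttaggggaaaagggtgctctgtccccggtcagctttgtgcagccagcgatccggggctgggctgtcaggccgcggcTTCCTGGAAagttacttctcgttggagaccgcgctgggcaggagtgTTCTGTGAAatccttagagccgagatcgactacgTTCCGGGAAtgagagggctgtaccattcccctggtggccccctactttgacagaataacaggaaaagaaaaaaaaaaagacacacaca
Bcl6, outer start, minus strand of chr16:23988853-23989102: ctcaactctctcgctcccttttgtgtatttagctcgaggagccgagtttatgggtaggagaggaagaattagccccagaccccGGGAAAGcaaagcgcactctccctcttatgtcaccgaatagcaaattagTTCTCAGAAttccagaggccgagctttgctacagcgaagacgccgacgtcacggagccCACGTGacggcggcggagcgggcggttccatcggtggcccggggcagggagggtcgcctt

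The Prdm1 window lies inside the deposited Prdm1 model (chromosome 10, 44437177 to 44528501, minus strand), which begins farther upstream. It holds 1 match to the BATF and AP-1 motif, TGAATCA, at 48 bases before the start, and 2 E-boxes. Of 32851 RefSeq promoter windows of this length, 6.75% hold TGANTCA and 66.2% an E-box. The inner Bcl6 window lies within its gene model (chromosome 16, 23965052 to 23988852, minus strand) and holds 3 matches to TTCNNNGAA, a number that 0.0274% of all windows reach. The outer window, directly before the model, holds 1 such match, 1 match to GNGAAAG and 1 E-box. TTCNNNGAA occurs in 7.02% and GNGAAAG in 19.4% of all windows. A match is a string of letters, and binding was not measured.

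Of Id2 and Id3, the inhibitors of E proteins, Id2 rose, while Id3 had lower values in every ILT3+ library without passing the test on group alone. Id2 measured 286.2, 271.4 and 267.6 CPM in the ILT3+ libraries, against 43.1, 31.8 and 31.5 CPM in the ILT3- libraries. The groups lay far apart, averaging 275.1 ± 9.82 CPM for ILT3+ cells against 35.5 ± 6.61 CPM for ILT3- cells (SD, n = 3 each). This made a log2 fold change of 2.96 (SE 0.20, edgeR adjusted p = 0.000906). Id3 measured 50.3, 12.3 and 16.5 CPM in the ILT3+ libraries, against 109.2, 74.0 and 96.5 CPM in the ILT3- libraries. Every ILT3+ value was below every ILT3- value, and ILT3+ sample 1 was the highest of its group. The log2 fold change of Id3 was -1.82 (SE 0.51, edgeR adjusted p = 0.141), which missed the threshold. With the replicate block it was -2.08 (SE 0.33, adjusted p = 0.0173), and without ILT3+ sample 1 it was -2.69 (adjusted p = 0.00939).

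The Id2 window is shown as that of the Id gene that rose. It directly precedes the gene model (chromosome 12, 25093801 to 25096092, minus strand) and holds 1 E-box, CAGCTG at 196 bases before the start.
Id2, minus strand of chr12:25096093-25096342: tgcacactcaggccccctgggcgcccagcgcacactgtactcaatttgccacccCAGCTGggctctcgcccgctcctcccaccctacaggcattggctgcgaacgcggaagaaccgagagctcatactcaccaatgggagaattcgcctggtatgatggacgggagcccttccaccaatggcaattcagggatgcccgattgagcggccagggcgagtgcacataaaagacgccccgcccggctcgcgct

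The window before Id3 (plus strand of chr4:136143572-136143821) lies inside its model (chromosome 4, 136143497 to 136145755) and matched none of the motifs searched. Of the 10 genes 8 have an entry in the table, with 13 start sites in all. Matches to TTANNTAA (the D-box bound by Nfil3), TGCTGA (part of the Maf recognition element) and TATAAA (the TATA box) were also sought, and occur in 5.43%, 16.1% and 12.4% of all windows. Tox2 had the D-box and the TATA box before 2 starts that lie 1 base apart, Irf4 had the TATA box, and TGCTGA was in no window of these 8 genes.

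The ratio of opposed genes within a library does not depend on how libraries are scaled. Prdm1 had 4.98, 1.73 and 4.25 reads per read of Bcl6 in the ILT3+ libraries, against 0.831, 0.133 and 0.108 in the ILT3- libraries. Total Prdm1 reads outnumbered those of Bcl6 in every ILT3+ library and were fewer in every ILT3- library. On exon reads alone ILT3- sample 1 went the other way, with 44 reads of Prdm1 and 24 of Bcl6. The log2 ratio averaged 1.73 ± 0.82 in ILT3+ and -2.13 ± 1.62 in ILT3- cells, a difference of 3.86 (SD, n = 3 each, two-sided exact permutation p = 0.1). For Id2 and Id3 the ratio was 5.69, 22.0 and 16.2 in the ILT3+ libraries, against 0.395, 0.430 and 0.327 in the ILT3- libraries. Its log2 value averaged 3.66 ± 1.02 in ILT3+ and -1.39 ± 0.20 in ILT3- cells, a difference of 5.05 (SD, n = 3 each, two-sided exact permutation p = 0.1). With 3 samples against 3, 0.1 is the smallest p this test can give. These ratios compare reads of genes of different length, so only their change between groups carries meaning.

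**Figure D2:**
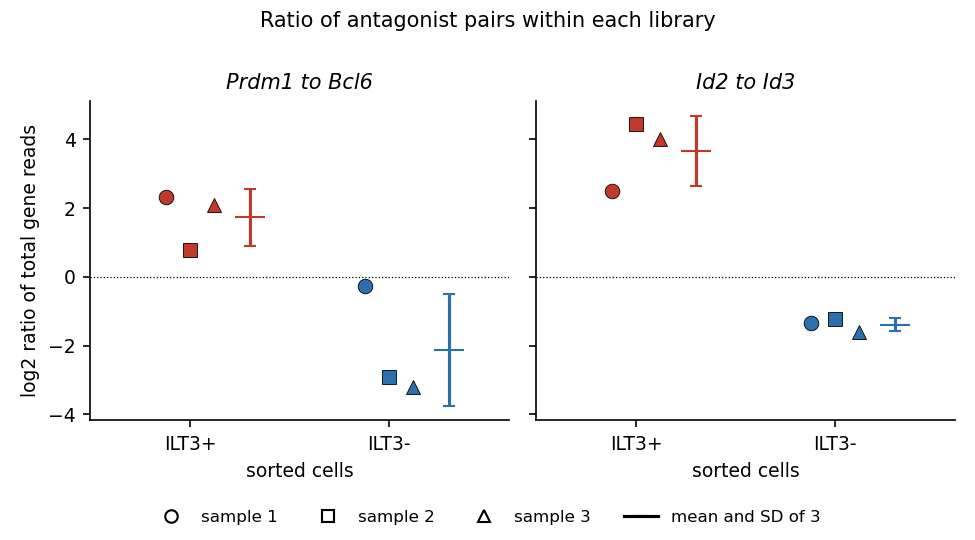
Log2 ratio of total gene reads of Prdm1 to Bcl6 and of Id2 to Id3 in each library, with 0.5 reads added to each gene, ILT3+ left in red and ILT3- right in blue, and the mean and SD of 3 libraries beside the points. Every ILT3+ library lies above 0 and every ILT3- library below 0 for both pairs.

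Batf rose and its partner Irf4 did not separate the groups. Batf, an AP-1 factor that opens chromatin with IRF4 in activated T cells, measured 196.6, 149.3 and 221.7 CPM in the ILT3+ libraries, against 80.9, 55.0 and 47.3 CPM in the ILT3- libraries. All ILT3+ values were above all ILT3- values. The Batf model spans 85686669 to 85709087 on the plus strand of chromosome 12. In log2 units the fold change was 1.63 (SE 0.26, edgeR adjusted p = 0.0216), and the call was lost on unique exon reads (adjusted p = 0.0511). Irf4, needed for effector Treg differentiation in mice, measured 88.0, 139.9 and 294.1 CPM in the ILT3+ libraries, against 44.0, 206.4 and 349.7 CPM in the ILT3- libraries. In both groups sample 1 was lowest and sample 3 highest, and the groups overlapped over nearly their whole range. The Irf4 model spans 30749226 to 30766927 on the plus strand of chromosome 13. The log2 fold change was -0.20 (SE 0.69, edgeR adjusted p = 0.944, 95% interval -1.81 to 1.40). With the replicate block it was 0.04 (SE 0.29, adjusted p = 0.958, 95% interval -0.66 to 0.74).

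**Figure D3:**
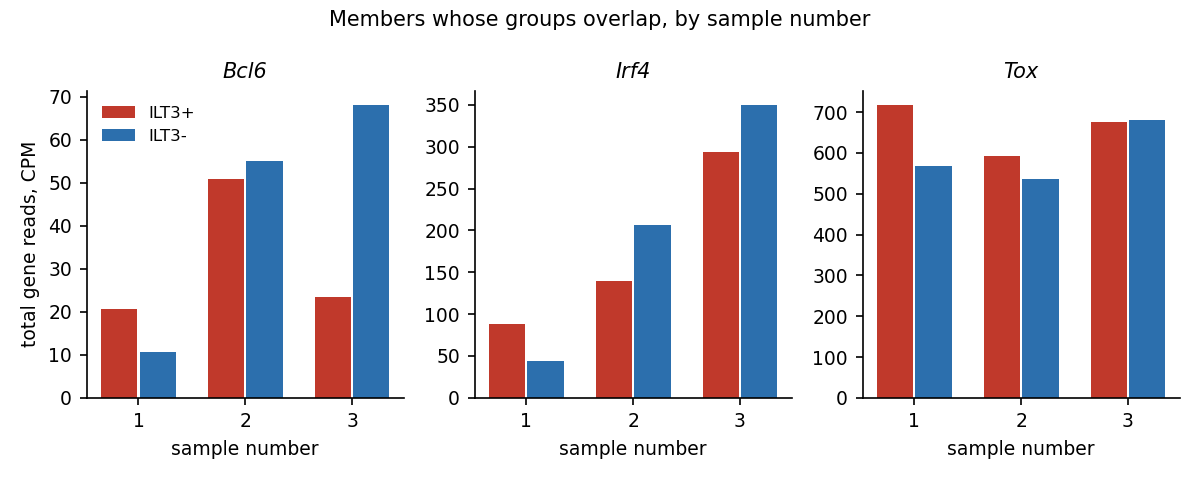
CPM of Bcl6, Irf4 and Tox by sample number, ILT3+ in red left of ILT3- in blue, each bar 1 library. Bcl6 and Irf4 are lowest in the ILT3+ and the ILT3- library numbered 1, and Tox lies between 535.4 and 716.9 CPM in all 6.

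Maf, which encodes c-Maf, a bZIP factor that activates Il10 in several T cell subsets, rose. It measured 181.2, 117.0 and 130.4 CPM in the ILT3+ libraries, against 34.4, 19.3 and 14.5 CPM in the ILT3- libraries. The lowest ILT3+ value was above the highest ILT3- value, and sample 1 was highest in both groups. In log2 units the fold change was 2.66 (SE 0.35, edgeR adjusted p = 0.0127), and the ratio was 5.27, 6.08 and 9.02 within numbers 1, 2 and 3. Its model (chromosome 8, 115682942 to 115707794, minus strand) overlaps Gm15655 on the other strand, which had 8 reads in all libraries together against 5751 for Maf.

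Nfil3, a bZIP repressor required for innate lymphoid cell development, did not pass the test. It measured 29.6, 18.7 and 15.7 CPM in the ILT3+ libraries, against 13.0, 7.31 and 12.9 CPM in the ILT3- libraries. The groups did not overlap, by a narrow margin between ILT3+ sample 3 and ILT3- samples 1 and 3. Its log2 fold change of 0.94 (SE 0.39, 95% interval 0.03 to 1.86) had an edgeR adjusted p of 0.345 and an unadjusted p of 0.0439. In its model (chromosome 13, 52967209 to 52981073, minus strand) intron reads, 56.9% of the total, overlapped between the groups, while exon reads did not (8.76 ± 1.66 CPM for ILT3+ against 4.75 ± 1.65 CPM for ILT3- cells, SD, n = 3 each).

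Of Tox and Tox2, HMG-box factors of the same family, Tox2 passed the test and Tox did not. Tox, a factor of thymic T cell development and of exhausted T cells, measured 716.9, 592.5 and 675.5 CPM in the ILT3+ libraries, against 568.4, 535.4 and 681.4 CPM in the ILT3- libraries. The groups overlapped, and the log2 fold change was 0.15 (SE 0.18, edgeR adjusted p = 0.807), with a 95% interval from -0.27 to 0.57. Tox2, known for its role with Bcl6 in follicular helper cells, measured 57.8, 24.7 and 29.0 CPM in the ILT3+ libraries, against 6.97, 6.60 and 3.997 CPM in the ILT3- libraries. All ILT3+ values exceeded all ILT3- values, and ILT3+ sample 1 stood above the other 2 of its group. The log2 fold change of Tox2 was 2.67 (SE 0.44, edgeR adjusted p = 0.0241). The Tox2 model spans 163203125 to 163324170 on the plus strand of chromosome 2, and that of Tox 6686353 to 6991557 on the minus strand of chromosome 4. Introns held 72.8% of the reads of Tox2 and 71.5% of those of Tox. On exon reads alone the log2 fold change of Tox2 was 2.56 (SE 0.72, adjusted p = 0.146), with 15.9, 5.79 and 8.62 CPM of exon reads in the ILT3+ libraries, against 2.88, 0.55 and 1.67 CPM in the ILT3- libraries. The difference between the fold changes of Tox and Tox2 was not itself tested.

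**Figure D4:**
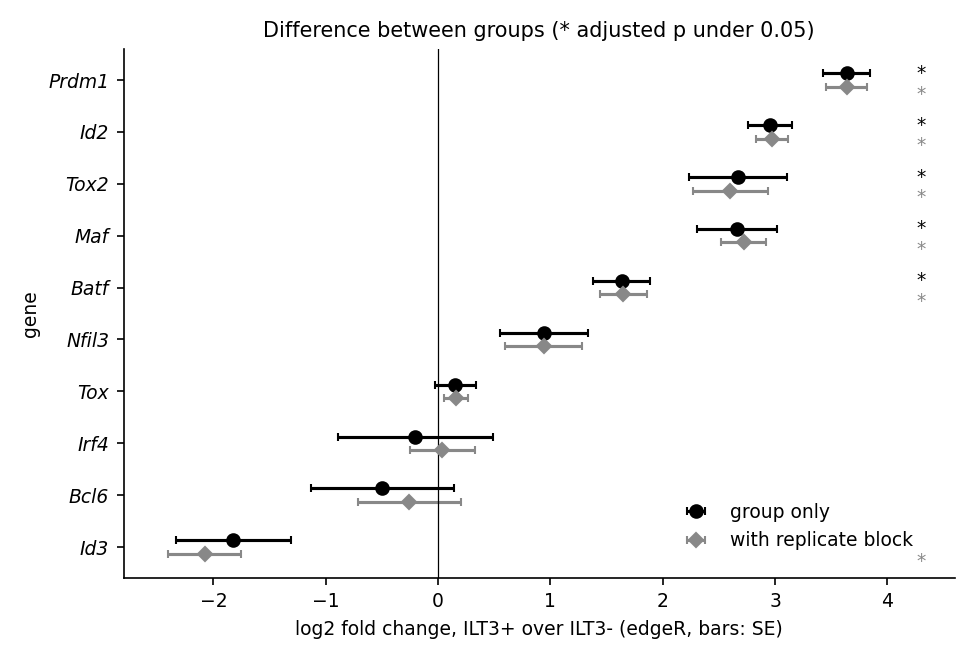
Log2 fold change of each gene, ILT3+ over ILT3-, with its SE, from the fit on group alone (black circles) and with the replicate block (grey diamonds). A star marks an adjusted p under 0.05 in the fit of that colour, and Id3 has a star with the block only.

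Per length of exon, the order of the 10 genes differed between the groups. The scale is exon reads per kilobase of exon and per 1000000 reads of the scaled library, here called exon RPKM. In ILT3+ cells Id2 was highest at 193.4 ± 8.86, followed by Batf at 149.9 ± 29.3, and the values of both were apart from each other and from those of all other members. Irf4 (34.4 ± 21.0), Tox (24.3 ± 1.63), Id3 (14.4 ± 11.3), Prdm1 (13.8 ± 0.72) and Maf (13.5 ± 4.23) followed, each overlapping its neighbour. Nfil3 (4.32 ± 0.82), Bcl6 (3.48 ± 2.06) and Tox2 (2.97 ± 1.53) were lowest and overlapped likewise. In ILT3- cells Id3 (50.5 ± 9.43), Batf (49.3 ± 17.6), Irf4 (39.0 ± 31.1), Id2 (23.8 ± 3.95) and Tox (22.8 ± 1.36) led, each overlapping the next. Bcl6 (5.23 ± 4.33), Nfil3 (2.35 ± 0.82), Maf (2.28 ± 1.24), Prdm1 (1.03 ± 0.23) and Tox2 (0.50 ± 0.34) were lower (exon RPKM, SD, n = 3 each), with Maf and Prdm1 apart. By these means Prdm1 was sixth of 10 in ILT3+ and ninth in ILT3- cells, with no test made of the change of order. Id3, next above Prdm1 in ILT3+ cells, was the higher of these genes in only 1 of the 3 libraries.

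Among the partners and relatives of these factors few genes were called. Of the 3 E proteins that Id factors bind, edgeR, DESeq2 and voom called 0, and 1 (Tcf4) had an unadjusted p under 0.05. Tcf12, the most abundant of them, averaged 352.3 ± 33.1 CPM for ILT3+ against 459.1 ± 60.5 CPM for ILT3- cells, Tcf3 averaged 16.7 ± 1.75 and 32.2 ± 23.6 CPM, and Tcf4 averaged 40.4 ± 16.3 and 21.9 ± 5.46 CPM in the same order (SD, n = 3 each). The median log2 fold change of the 3 was -0.38. Of 5 tested relatives and partners of BATF and IRF4, 1 rose. This was Batf3, a BATF relative needed for cross-presenting dendritic cells, at 14.5, 13.0 and 14.8 CPM for ILT3+ libraries, against 0.240, 0 and 0.363 CPM for ILT3- libraries (log2 fold change 6.06, edgeR adjusted p = 0.0150). Irf8 had a log2 fold change of 0.89 (adjusted p = 0.533) and Jun one of -1.31 (adjusted p = 0.751), which was -0.21 with the replicate block (adjusted p = 0.841). Jun was at 425.4 and 1365 CPM in the ILT3+ and ILT3- libraries numbered 1, against 58.6 to 105.4 CPM in the other 4. Hlf, a D-box factor related to Nfil3, was called, with 149 reads for ILT3+ against 3 for ILT3-. Per read of the scaled libraries this was 48.5 times as many (exact 95% counting interval 16.3 to 238). The related Dbp (-1.28) and Tef (-0.66) were not called. Id1 (-0.13), Maff (-0.75), Mafk (-0.30) and Tox4 (0.12) were called by none of edgeR, DESeq2 and voom, nor were the Bcl6 corepressors Ncor1 (0.12) and Bcor (0.14), and 0 of these 6 had an unadjusted edgeR p under 0.05. The value of Maff was 0.65 on exon reads, and that of Id1 -1.25 with the replicate block.

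Among other factors of effector lineages 2 rose. The list of these factors was chosen with earlier results of these data known. The 10 that were tested all had values above 0 on the log2 scale, as did 48.0% of all tested genes, and their median was 1.76. Of the 10, 2 were called, while 1.96% of all tested genes were called higher. Among them was Runx3, a factor of cytotoxic and Th1 cells, with 55.4, 107.2 and 142.6 CPM for ILT3+ libraries, against 12.7, 13.7 and 12.2 CPM for ILT3- libraries. Its log2 fold change was 2.98 (edgeR adjusted p = 0.00980), and on exon reads alone it was 1.99 (adjusted p = 0.0268). All its ILT3+ values were above all its ILT3- values. With the replicate block Tbx21, Rora, Ahr and Bhlhe40 were called as well, at log2 fold changes of 2.49, 1.66, 2.07 and 1.74. Gata3 had a log2 fold change of 0.55 (adjusted p = 0.204) in the fit on group alone.

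Genes reported as targets of Blimp-1 or Bcl6 had values on both sides of 0. Of 12 genes reported to be repressed by Blimp-1, which include the members Bcl6 and Id3, 6 had a positive log2 fold change. So did 48.0% of all tested genes. The median of the list was 0.28, and that of all tested genes -0.02. By edgeR 1 of the list was called higher and 0 lower, against 1.96% and 0.343% of all tested genes. The called one was Ciita, the master factor of MHC class II genes, with 282 reads for ILT3+ against 2 for ILT3-. Per read of the scaled libraries this was 137.8 times as many (exact 95% counting interval 37.8 to 1143). Tcf7, a factor of resting T cells, was at 133.6, 82.6 and 47.7 CPM for ILT3+ libraries, against 155.5, 213.3 and 172.3 CPM for ILT3- libraries (log2 fold change -1.04, edgeR adjusted p = 0.232). Myc had a log2 fold change of -0.11 (adjusted p = 0.927). In the list 3 genes had positive and 2 negative values at an unadjusted p under 0.05, voom called 1 higher and 0 lower, and DESeq2 2 higher and 1 lower of the 10 to which it gave an adjusted p. With the replicate block 2 were higher and 2 lower, against 4.18% and 2.62% of all tested genes. Tbx21 (2.49, adjusted p = 0.00763) was added as higher, and Fos (-1.13, adjusted p = 0.00791) and the member Id3 as lower. Fos had its highest values in both libraries numbered 1.

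Of 12 genes reported to be repressed by Bcl6, 3 were called higher and none lower by edgeR, while 9 and 1 had an unadjusted p under 0.05, DESeq2 called 6 and 1, and voom 4 and 1. Over all tested genes edgeR called 1.96% higher and 0.343% lower. Of the 3 called higher by edgeR, Prdm1 and Id2 are members, so their calls are those given above. The other was Runx3, already given among the factors of effector lineages. With the replicate block 7 were higher and 2 lower, against 4.18% and 2.62% of all tested genes. Those added by the block were Tbx21, Rora, Runx2 (0.77, and 1.45 on exon reads without the block) and Il7r (1.18), higher, and Klf2 (-1.94) and S1pr1 (-1.44), lower. The median of the list was 1.26, and that of all tested genes -0.02. Positive values were found for 10 of the 12, and for 48.0% of all tested genes. For 7 tested follicular T cell genes edgeR, DESeq2 and voom each called 0, and 0 had an unadjusted edgeR p under 0.05. Btla had a log2 fold change of -0.74, Cxcr5, the follicle homing receptor, one of 0.67 and Il21 one of 2.35 (1.65 on exon reads) from 92 reads for ILT3+ and 13 for ILT3- libraries (adjusted p = 0.378, 0.585 and 0.673).

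Products tied to these factors in effector cells were higher in part. The list was chosen with earlier results of these data known. The 12 tested all lay above 0 on the log2 scale, as did 48.0% of all tested genes, and their median was 1.96. By edgeR 6 were called, and 9 with the replicate block. Of all tested genes 1.96% were called higher by edgeR and 4.18% with the block. Il10, an anti-inflammatory cytokine gene with c-Maf and Blimp-1 among its activators, was at 99.6, 131.8 and 226.1 CPM for ILT3+ libraries, against 14.3, 24.6 and 43.8 CPM for ILT3- libraries (log2 fold change 2.46, adjusted p = 0.0392). On exon reads its value was 3.11 with an adjusted p of 0.111. Klrg1, Il1rl1, Ebi3, Lag3 and Icos had log2 fold changes of 3.12, 3.22, 2.26, 2.02 and 1.53. Ctla4 averaged 843.4 ± 50.7 CPM for ILT3+ against 825.4 ± 76.6 CPM for ILT3- cells (SD, n = 3 each, log2 fold change 0.03, edgeR adjusted p = 0.966).

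**Figure D5:**
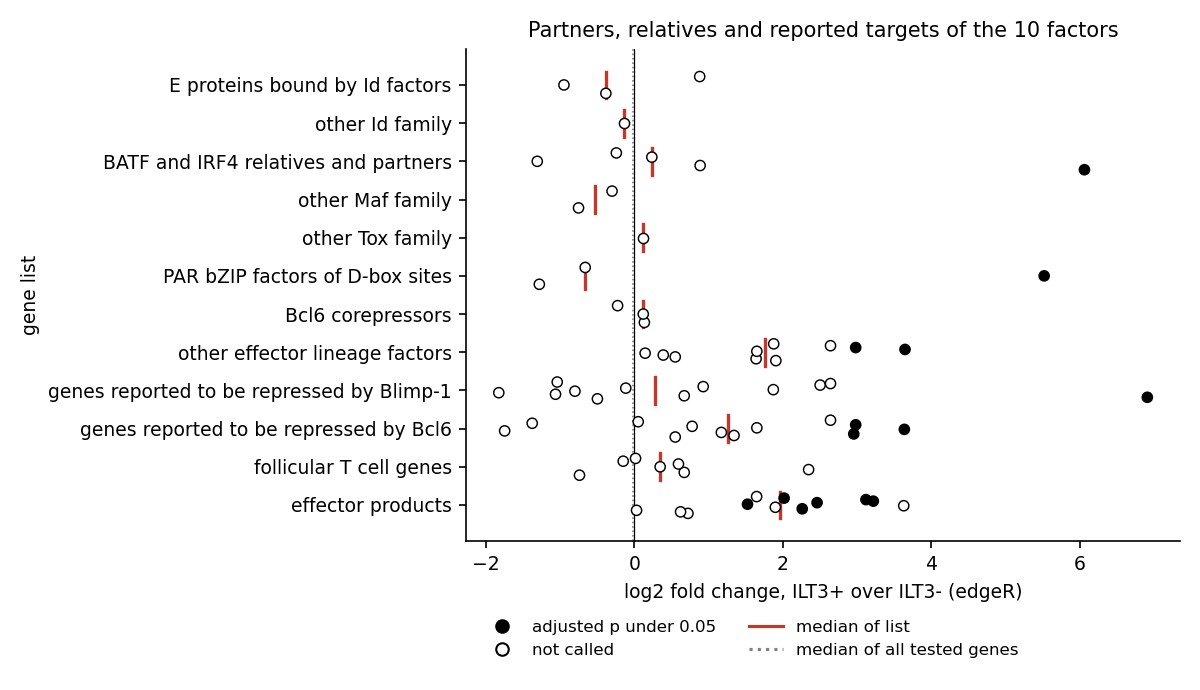
Log2 fold changes, ILT3+ over ILT3-, of the tested genes of 12 lists (filled points passed an adjusted p of 0.05 in edgeR, open ones did not), with each list's median in red and that of all tested genes as a dotted line. The lists of other effector lineage factors and of effector products hold positive values only, with medians of 1.76 and 1.96. Some genes stand in more than 1 list, and the lists were chosen with earlier results of these data known.

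The profiles most like those of the opposing pairs were sought among 8577 other genes of at least 10 CPM on average, by the Euclidean distance of centred log2(CPM + 0.5) values over the 6 libraries. Nearest to Prdm1 were Stom (distance 0.50), Cd74 (0.58) and F2r (0.71), and Id2 was its nearest member (0.77). Nearest to Id2 were Penk (0.39), F2r (0.41) and Alox8 (0.55). Nearest to Bcl6 were Serf2 (0.57), S100pbp (0.58) and Vhl (0.74), whose lowest library, like that of Bcl6, was ILT3- sample 1. Nearest to Id3 were Acss1 (0.98), Gsta4 (1.02) and Dapk1 (1.03), all lower in every ILT3+ than in every ILT3- library. Such distances over 6 libraries in 2 groups are a description, and no test was made.

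Cells other than T cells also use these factors, so markers of such cells are given beside the results. Plasma cells use Blimp-1 and IRF4, and of 5 plasma cell markers in the files 3 were tested. The 5 summed to 120.2 to 315.8 CPM in ILT3+ and 176.4 to 244.2 CPM in ILT3- libraries, nearly all from Xbp1, while Tnfrsf17 gave 1 read over the ILT3+ libraries and 4 over the ILT3- libraries. Sdc1, the plasma cell marker CD138, was at 14.4, 7.56 and 3.27 CPM for ILT3+ libraries, against 2.28, 2.12 and 3.42 CPM for ILT3- libraries (edgeR adjusted p = 0.290), the single plasma cell marker with an unadjusted p under 0.05, and edgeR and voom called 0 of the 3 and DESeq2 0 of the 2 to which it gave an adjusted p. The 7 B cell markers summed to 36.5 to 88.9 CPM in ILT3+ and 21.4 to 39.8 CPM in ILT3- libraries, Cd79b being the most abundant, with 6 tested and 0 called by edgeR, DESeq2 and voom (1 at an unadjusted p under 0.05).

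Macrophages use Maf. The 6 macrophage markers in the files summed to 881.5 CPM in ILT3+ sample 1, to 10.2 and 10.9 CPM in ILT3+ samples 2 and 3, and to 3.61 to 22.6 CPM in ILT3- libraries, Vcam1 being the most abundant. Of the 4 that were tested edgeR and voom called 0, with 3 at an unadjusted edgeR p under 0.05, and DESeq2 gave none of them an adjusted p. With the replicate block C1qb and C1qc were called higher (adjusted p = 0.0146 and 0.0362). Without ILT3+ sample 1 the log2 fold changes of Prdm1, Id2, Maf, Batf and Tox2 were 3.59, 2.93, 2.46, 1.61 and 2.20, each still called (adjusted p = 0.00178, 0.00200, 0.0244, 0.0478 and 0.0461). Dendritic cell markers, 5 of 8 tested, summed to 242.5 to 394.7 CPM in ILT3+ and 18.7 to 24.03 CPM in ILT3- libraries. Most of the ILT3+ sums came from H2-Ab1, at 361.6, 195.7 and 189.9 CPM. Flt3, also tested, averaged 1.87 ± 0.51 CPM for ILT3+ against 1.69 ± 0.72 CPM for ILT3- cells (SD, n = 3 each). Its log2 fold change was 0.15 (edgeR adjusted p = 0.955). H2-Ab1 and Batf3 were called, and with the replicate block Zbtb46 as well (24.5 ± 12.1 CPM for ILT3+ against 7.27 ± 5.06 CPM for ILT3- cells, SD, n = 3 each, edgeR adjusted p = 0.0386 with the block). Xcr1 was at 0, 6.84 and 11.2 CPM for ILT3+ libraries, against 0, 1.26 and 1.45 CPM for ILT3- libraries (adjusted p = 0.540), while Cd209a had 0 reads in all libraries and Clec9a 0 in ILT3+ libraries. Itgax, the gene of CD11c, gave 50 reads over the ILT3+ libraries and 0 over the ILT3- libraries, reaching 4.597 CPM in ILT3+ sample 1. The 6 NK and innate lymphoid cell markers summed to 163.3 to 228.9 CPM in ILT3+ and 20.2 to 23.6 CPM in ILT3- libraries, mostly from Kit, with Klra8 at 0 reads throughout. Of the 2 that were tested Kit was called higher (178.5 ± 48.7 CPM for ILT3+ against 19.0 ± 5.51 CPM for ILT3- cells, SD, n = 3 each, edgeR adjusted p = 0.00520), and with the replicate block Zbtb16 as well (adjusted p = 0.0163). Of those not tested, Eomes went the other way, with 15 reads for ILT3+ against 74 for ILT3-. Klrb1c was at 23.9, 0.161 and 0.638 CPM for ILT3+ libraries, against 0.240, 0.236 and 0 CPM for ILT3- libraries. Ncr1 was at 5.82, 0 and 0.638 CPM for ILT3+ libraries, against 0.961, 0 and 0 CPM for ILT3- libraries. Erythroid markers summed to 41.7 to 201.7 CPM in ILT3+ and 0.55 to 5.05 CPM in ILT3- libraries, led by Hba-a2, although red cells of the spleen had been lysed. Of the 4 that were tested Hba-a1 and Hba-a2 were called higher by edgeR (adjusted p = 0.0324 and 0.0308), all 4 by DESeq2 and with the replicate block, and 0 by voom. The CD8 T cell markers Cd8a and Cd8b1 summed to 13.8 to 17.8 and 11.5 to 30.8 CPM in the same order, with 0 of these 2 at an unadjusted p under 0.05 or called by edgeR, DESeq2 or voom. The part of plasma, B, macrophage, dendritic, innate lymphoid, erythroid and CD8 T cells in the members' differences was not tested. Leaving out ILT3+ sample 1 was no such test, since it removed 1 library and not a cell type.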

How the data were processed

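Total RNA of 6 sorted samples was sequenced. SmartSeq V2 full-length cDNA was made from 1 ng of RNA and turned into Nextera XT libraries, per the labels' protocols. The authors deposited read counts per gene for each sample, in all and uniquely placed, for exons, introns and both. The submitters' processing notes name GRCm38 as the build. The aligner, counting tool, annotation and use of strand were not given in the sources used here, so antisense reads cannot be told apart. Total gene reads were tested, with exon and unique reads as alternatives. Reads carry no molecular identifiers, so counting intervals cover counting error only. A count of 3 reads was 0.220 to 0.321 CPM. Chi-square divided by its degrees of freedom was 18.3 to 128 over the pairs of libraries, so no libraries agreed within sampling noise.

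Groups were compared across all genes with edgeR 4.0.16 in R 4.3.3 (TMM factors, default filter with a minimum count of 10 and total of 15, robust quasi-likelihood fit on group, Benjamini-Hochberg adjustment at 0.05). The SE is the log2 fold change over the root of F, and 95% intervals use the fit's degrees of freedom. DESeq2 1.42.0 and voom in limma 3.58.1 were alternatives. Deviations of same-numbered samples from their group means correlated at 0.362, 0.236 and 0.248, all over 0.1, and equal numbers were treated as pairs. Of the unequal pairs, ILT3+ 2 with ILT3- 3 (0.143) and ILT3+ 3 with ILT3- 2 (0.106) were over 0.1 too, and the other 4 were at -0.235 to -0.274. This pairing comes from the data and is not stated in the labels.

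Members, lists, markers and tests were chosen with earlier results of these data known. Named genes are the members, called list genes and otherwise up to 3 of a list by smallest p, the top marker by level of each cell type, and the 3 nearest profiles of Prdm1, Bcl6, Id2 and Id3. Jun, Myc and Ctla4 and some other list genes, some markers, and Lilrb4 were named outside this rule, after their values were seen. Jchain, Adgre1 and Mafg are not listed by these names in the files. Promoter windows are from RefSeq on GRCm38.p6. Some list and marker genes are counted but not reported here by name.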

Additional observations from a re-analysis of the deposited data

How the results depend on the processing

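Each member's log2 fold change was recomputed under 16 alternatives and each log2 ratio difference under 12, all planned. Prdm1 and Id2 were called in all 16, with log2 fold changes of 3.59 to 3.73 and 2.88 to 3.12. Maf was called in 12, Batf in 11 and Tox2 in 10, and Id3 in 4, lower. Bcl6, Irf4, Nfil3 and Tox were called in none. The sign of each kept in all 16 except for Irf4, which was positive under voom (0.027), with the replicate block (0.039), without ILT3+ sample 1 (0.12) and without ILT3- sample 3 (0.48), and ranged from -0.80 to 0.48 when 1 library was left out. Members called higher were 3 on unique exon reads and 2 to 5 when each library was left out. Members called lower were 1 with DESeq2, with the replicate block and with both samples numbered 1 left out, and 0 to 1 when each library was left out. Over all genes, those called higher were 177 on unique exon reads, 693 with DESeq2, 573 with the replicate block, 625 with both samples numbered 1 left out and 27 to 274 when each library was left out, against 269. Those called lower were 29 on exon reads, 27 on unique exon reads, 255 with DESeq2, 359 with the replicate block, 161 with both samples numbered 1 left out and 1 to 48 when each library was left out, against 47. The cause of these shifts was not tested. The replicate block changed no call of a member other than that of Id3. The log2 ratio differences stayed within 3.32 to 4.79 for Prdm1 to Bcl6 and 4.65 to 5.65 for Id2 to Id3. The fewest reads per group behind a member were 197, for Tox2 in ILT3- libraries.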
